A study of Mus musculus with 18 samples.

Results

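RNA of hepatocytes from MTDH KO and WT mice was compared after the cells had been given conditioned medium of Kupffer cells. This treatment has 6 libraries, 3 for each genotype, out of 18 libraries in the series, and their labels define them. The comparison, the gene lists and their defining members were chosen with earlier results of these data known. The other 12 libraries hold hepatocytes of both genotypes given TNFa or TGFb, again 3 for each genotype and treatment, and they are used here for the shared estimate of spread and for the comparison of treatments. The conditioned medium came from Kupffer cells that had been treated with Py8119-EVPs, and Py8119 is a mouse mammary tumour line. All 6 libraries therefore share this medium, so a response to the medium itself cannot be told apart from the cells' resting state. No library of hepatocytes without treatment was analysed here. The mice were age-matched and had no tumour, per the labels. The sources used here give no ages, sex, doses, exposure times or way of making the knockout, and do not say whether each library is a separate mouse, so the p-values below measure the spread between libraries, which may be technical.

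MTDH, also called AEG-1 or LYRIC, is a transmembrane protein of the endoplasmic reticulum and nuclear envelope. It binds RNA and the nuclease SND1, and it is known for promoting tumour growth and for modulating NF-kappaB and retinoid receptor signalling. Hepatocytes carry out most of the amino acid breakdown, urea synthesis, gluconeogenesis, drug metabolism, bile acid synthesis and plasma protein secretion of the body, and these tasks are distributed unevenly between the periportal and the pericentral zone of the liver lobule. Kupffer cells are the resident macrophages of the liver sinusoid, and the cytokines they secrete act on neighbouring hepatocytes.

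The deposited values are read counts per gene scaled for library size, so they can be compared between libraries for 1 gene but are not scaled for transcript length. Differences written with ± are KO minus WT on the scale of log2(value + 1), with the standard error of the fit, and a gene is said to have risen or fallen where the adjusted p was under 0.05. The estimated depth was 21300000 to 35600000 reads a library, and 14397 to 15420 genes had a value above 0. Albumin made up 8.61, 8.64 and 8.76% of the summed values in KO against 6.94, 6.90 and 6.80% in WT. All 12 hepatocyte markers passed the filter, and 5 of them were higher in KO (median log2 difference 0.35).

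Markers of other cell types were present as well, and their counts are read against 5.62% higher and 3.77% lower of all genes. Of 24 Kupffer cell and macrophage markers, 23 were tested and 10 rose in KO, with a median log2 difference of 1.42. Their summed values were 9593, 9465 and 9814 in KO against 5771, 6564 and 6618 in WT, 1.52-fold higher in KO, and none of the 24 was at 0 in all 6 libraries. The markers Cd5l (1.89 ± 0.21), Adgre1, which encodes F4/80 (1.40 ± 0.22), and Csf1r (1.21 ± 0.23) rose, as did the defining gene Marco (1.76 ± 0.45). The defining genes Clec4f (1.72) and C1qa (2.12) rose too, but Clec4f lost its call without KO 2 or WT 2 and C1qa without WT 1. Vsig4 was at 2.20 and passed the test only with quantile normalization, while Cd68 was at 0.07 ± 0.14 (adjusted p = 0.84). Of 7 dendritic cell markers tested, 1 rose, the MHC class II chain gene H2-Aa (2.13 ± 0.26), and the list summed to 949, 928 and 886 in KO against 426, 494 and 455 in WT, 2.01-fold higher in KO. The sinusoidal endothelial list summed to 5899, 5921 and 5932 in KO and 4729, 4581 and 3886 in WT, with 1 of 22 genes past the test (Cdh5, VE-cadherin, 0.61 ± 0.12). That share of 4.55% is below the 9.39% called of all genes. Of 10 stellate cell and fibroblast markers tested 1 rose (Dcn, decorin, 0.92 ± 0.25, a call lost without KO 1, KO 2 or WT 1), a share close to that of all genes. Of 4 red blood cell markers 1 fell (Hbb-bs, a globin chain, -2.95 ± 0.84, a call lost without KO 2, KO 3, WT 1 or WT 3). Of the markers tested for cholangiocytes (12), neutrophils and monocytes (8), T and NK cells (4) and B and plasma cells (4), none passed the test in either direction. In bulk RNA, fewer cells of a type and less RNA per cell cannot be told apart, and the part of non-hepatocyte RNA in the results below was not tested beyond the values given beside them. With TNFa 13 of the 23 macrophage markers rose (median 1.29) and with TGFb 14 did (median 1.59), with none falling. The test of the difference between treatments called none of them against TNFa or TGFb. The medium donor cells were Kupffer cells, but the labels do not say whether the hepatocytes were freed of resident Kupffer cells.

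The 6 libraries also differed by transcript length. Among genes averaging at least 50, transcripts of up to 1000 bases lay 0.05 to 0.07 above the 6-library mean (median, log2) in the KO libraries, 0.08 below it in WT library 1, 0.09 below it in WT library 2 and 0.02 above it in WT library 3. Transcripts of over 6000 bases went the other way, at -0.09 in each KO library, 0.16 in WT 1, 0.12 in WT 2 and 0.03 in WT 3. WT 1 and WT 2 thus stood apart from the KO libraries, and WT 3 lay between. Of the 1919 short genes 10.4% rose and 2.71% fell, whereas of the 653 long genes 0.766% rose and 15.9% fell. The median difference of the short genes was 0.11 with conditioned medium, -0.04 with TNFa and 0.01 with TGFb. That of the long genes was -0.18 with conditioned medium, 0.02 with TNFa and -0.13 with TGFb. Results with conditioned medium on lists of short genes, above all ribosomal and respiratory chain genes, are therefore given with this trend removed. They are also given without single WT libraries where that moves them.

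**Figure D1:**
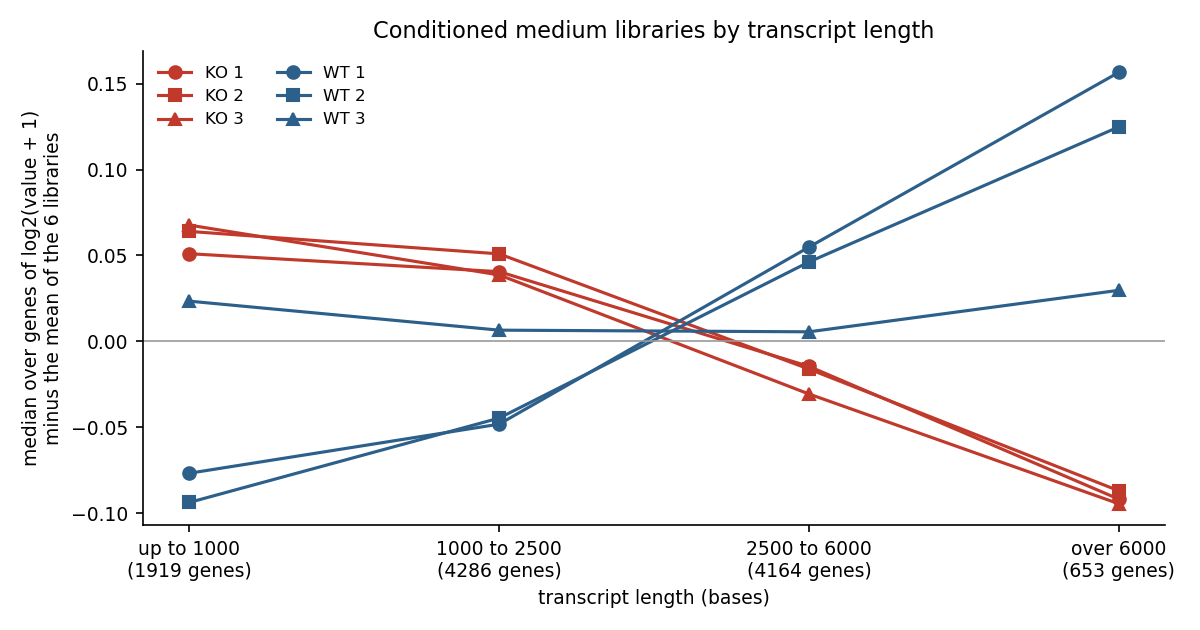
Median deviation of log2(value + 1) from the mean of the 6 conditioned medium libraries (y axis) for genes in 4 classes of transcript length in bases (x axis), 1 line for each library. The 3 KO lines run from 0.05 to 0.07 in the shortest class down to -0.09 in the longest, WT 1 and WT 2 run the opposite way, and WT 3 is nearly flat.

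The targeted gene separated the genotypes in every library. Mtdh (chromosome 15, 34082840 to 34145771, in the table's mm39 coordinates) was at 747, 719.5 and 864 in KO and 12253, 10063 and 12012 in WT. This amounts to 6.79% of the mean WT level, a log2 difference of -3.88 ± 0.11, adjusted p = 1.3e-21 by limma's moderated test with Benjamini-Hochberg adjustment, the test used for every gene below. It was -4.17 ± 0.11 with TNFa and -3.80 ± 0.11 with TGFb. Some Mtdh signal thus remained in each KO library, and the deleted part of the gene is not stated in the sources used here.

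Of 14455 genes tested with conditioned medium, 1358 passed an adjusted p of 0.05, which is 9.39% of those tested. Of these, 813 were higher in KO (5.62%) and 545 lower (3.77%). These shares are the background for each list count with conditioned medium below. The balance depended on scaling: with every library set to the same total 627 genes were called higher and 874 lower, with the all-gene median at -0.09 in place of -0.01. The rises were the larger changes, with a median size of 0.65 against 0.48 for the falls, and 198 rises but 59 falls exceeded a log2 size of 1. Values of the 3 KO and the 3 WT libraries did not overlap for 787 of the 813 and 536 of the 545, against 3718 genes (25.7%) of all those tested. The calls rest on these same values, so a lack of overlap in called genes is no separate support, here or below. Of the 813 higher genes, 309 (38.0%) were also higher with TNFa and 497 (61.1%) with TGFb. Of the 545 lower genes, 176 (32.3%) were also lower with TNFa and 237 (43.5%) with TGFb. Opposite calls were few, at 12 genes against TNFa and 8 against TGFb in all. The background with TNFa was 1141 genes (7.89%), of which 4.19% of all tested were higher and 3.7% lower, and with TGFb 1764 genes (12.2%), with 7.25% higher and 4.95% lower.

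The falls of largest size included enzymes of conjugation, a taurine enzyme and a receptor. These genes, and the largest rises below, were picked among called genes whose KO and WT libraries did not overlap. The separation of the groups in them therefore follows from the choice. Sult3a2 (chromosome 10, 33642420 to 33662701), an amine sulfotransferase, was at 24.8, 0.937 and 0 in KO and 133, 64.4 and 89.9 in WT, a log2 difference of -4.65 ± 0.88, adjusted p = 5.6e-04. Its neighbour Sult3a1 was at 297, 321 and 196 in KO and 1236, 1046 and 1264 in WT (-2.14 ± 0.19). The 2 groups did not overlap for either gene, as the choice required, and reads of these near-identical copies may have been split by the counting. Ntrk2, the receptor TrkB for brain-derived neurotrophic factor, was at 13.3, 29.1 and 3.28 in KO and 136, 132 and 144 in WT (-3.49 ± 0.62, adjusted p = 2.6e-04). Each KO library was again below every WT library, as the choice required.

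Further falls of this size were those of Csad, Pam16, Zfr2, Srgap3, Smpd3, Gstp2, Fzd6 and Nim1k. Csad, which decarboxylates cysteine sulfinic acid on the way to taurine, is described below. Falls that kept their call without any 1 of the 6 libraries were those of Srgap3, a GTPase-activating protein (-1.83 ± 0.14), Smpd3, neutral sphingomyelinase 2 (-1.76 ± 0.42), and the Wnt receptor Fzd6 (-1.69 ± 0.28). The other 4 named depended on single libraries. Pam16, a subunit of the mitochondrial import motor, was at -2.65 ± 0.82 but at -1.65 (adjusted p = 0.28) without KO 2, and its call was lost without WT 1 or WT 3 too. Zfr2 (-1.96 ± 0.55) and Nim1k (-1.65 ± 0.51) lost their calls without KO 1, KO 2, WT 1 or WT 2, and Gstp2 (-1.74 ± 0.55), which shares sequence with Gstp1, without KO 1, KO 3, WT 1 or WT 2.

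The rises of largest size were led by a protease inhibitor. Serpinb1a (chromosome 13, 33026075 to 33035169), an inhibitor of neutrophil serine proteases, was at 202, 121 and 195 in KO and 18.3, 16.6 and 5.48 in WT, a log2 difference of 3.70 ± 0.50, adjusted p = 4.9e-06. Apoc2, the cofactor of lipoprotein lipase, was at 339, 248 and 257 in KO and 131, 85.5 and 5.13 in WT (2.76 ± 0.63, adjusted p = 0.0037), and without WT 3 the rise was 1.39. Mmp13, a collagenase, was at 148, 90.8 and 104 in KO and 22.7, 27.3 and 12.1 in WT (2.45 ± 0.60, adjusted p = 0.0065). A trio of enzyme genes of detoxification belonged to the same group of 12: the hydroxysteroid sulfotransferases Sult2a5 (2.46 ± 0.48) and Sult2a3 (2.32 ± 0.21) and the glutathione transferase Gsta2 (2.30 ± 0.30), all members of families whose copies may share reads. Tspyl5, which lies near Mtdh, rose by 3.49 ± 0.79, or by 2.12 without WT 1.

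The remaining 5 rises had low values and depended on single libraries. Rab39b, a small GTPase (2.79 ± 0.85), was at 0.97 (adjusted p = 0.37) without WT 1, and its call was lost without any 1 of the 3 KO libraries. Marcksl1, an actin-binding protein (2.50 ± 0.76), was at 1.64 (adjusted p = 0.25) without WT 1 and lost its call without KO 1, KO 2, KO 3 or WT 2. Clec4n, the myeloid lectin dectin-2 and a member of the macrophage marker list (2.55 ± 0.73), was at 1.91 (adjusted p = 0.16) without WT 1 and lost its call without any 1 of the 3 KO libraries. P2ry10b (2.25 ± 0.65) lost its call in 5 of the 6 cases and the ferroxidase gene Heph (2.75 ± 0.88) in all 6. With no filter on low values, the calls of Rab39b, Marcksl1, Heph, Pam16, Gstp2 and Nim1k were lost as well.

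**Figure D2:**
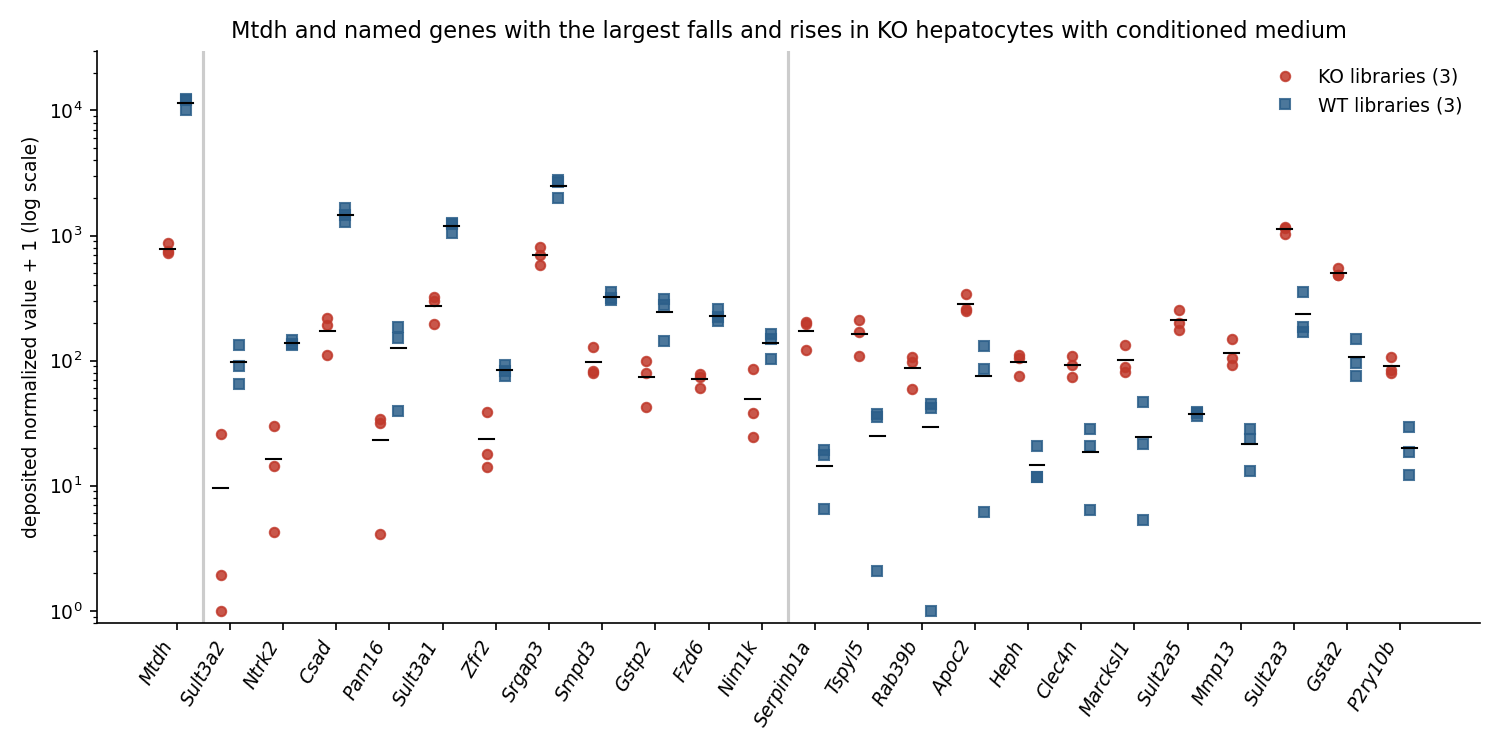
Deposited normalized value + 1 on a log axis (y) for Mtdh and the named genes with the largest falls and rises (x), 1 point for each of the 3 KO and 3 WT libraries. Genes other than Mtdh were picked among called genes whose KO and WT libraries did not overlap, so the separation of the points follows from the choice. The log2 differences run from -4.65 for Sult3a2 to 3.70 for Serpinb1a.

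Among abundant genes, the changes were smaller. Selenop, the plasma selenium carrier, rose by 0.65 ± 0.11 and Mat1a, which makes S-adenosylmethionine in adult liver, by 0.98 ± 0.09. Cyp3a11, a major drug-metabolizing cytochrome P450, was at 0.64 ± 0.10, adjusted p = 6.6e-05, and at 0.33 with quantile normalization. The mitochondrially encoded mt-Co3, a subunit of cytochrome c oxidase, rose by 0.67 ± 0.14, while Ahnak, a very large scaffold protein, fell by 0.77 ± 0.13.

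Genes of amino acid breakdown were the list with the highest number of rises. Of 57 tested, 37 rose and 1 fell, with a median log2 difference of 0.60, against 5.62% higher and 3.77% lower of all genes and a median of -0.01. Hal, which opens histidine breakdown, was at 2267, 2121 and 1811 in KO and 482, 623 and 543 in WT (1.91 ± 0.14, adjusted p = 5.8e-11). Gnmt, which consumes S-adenosylmethionine to methylate glycine, was at 5383, 5485 and 5872 in KO and 2153, 2009.5 and 2406 in WT (1.35 ± 0.10, adjusted p = 5.8e-11). Agxt, which converts glyoxylate to glycine, was at 1674, 1594 and 1592 in KO and 633, 499 and 606 in WT (1.49 ± 0.15, adjusted p = 3.0e-08). In all 3, each KO library exceeded each WT library.

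Sds, serine dehydratase, rose by 1.68 ± 0.22, Hpd of tyrosine breakdown by 1.07 ± 0.13, Tdo2 of tryptophan breakdown by 0.90 ± 0.09 and the tyrosine aminotransferase gene Tat by 0.65 ± 0.10. With TNFa 29 of the 57 rose and 2 fell (median 0.49), and with TGFb 47 rose and 1 fell (median 1.04). The test of the difference itself called 1 of the 57 against TNFa, higher with conditioned medium, and 2 against TGFb, both lower with conditioned medium.

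Of 12 urea cycle and ammonia genes, 8 rose and none fell (median 0.78). Cps1, the entry enzyme of the cycle, was at 79200.2, 81625 and 75519 in KO and 42497, 35768 and 35882 in WT (1.05 ± 0.09, adjusted p = 6.0e-10). Ass1 rose by 1.03 ± 0.10, Arg1 by 1.03 ± 0.10, Otc by 0.77 ± 0.09 and Asl by 0.75 ± 0.12, so all 5 cycle enzymes were higher. Gls2, the liver glutaminase that feeds ammonia to Cps1, rose by 1.42 ± 0.10, adjusted p = 5.7e-11. The count of 8 was the same under every alternative that was run. The median was 0.62 with TNFa and 1.20 with TGFb.

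These enzymes are concentrated in the periportal zone, and 15 of 21 periportal genes rose while 1 fell (median 0.77). This list shares members such as Hal with the lists above, so its count is not a separate result. Of 20 pericentral genes, 8 rose and none fell (median 0.34). Cyp2a5, which metabolizes coumarin and nicotine, was at 21051, 21974 and 22473 in KO and 8159.8, 7765 and 9952 in WT (1.35 ± 0.09, adjusted p = 3.0e-12), and the ornithine aminotransferase gene Oat rose by 1.0 ± 0.11. The glutamine synthetase gene Glul, a defining pericentral gene, was at -0.05 ± 0.11 (adjusted p = 0.85) and Cyp2e1 at 0.27 ± 0.09 (adjusted p = 0.053). Cyp2f2, a defining periportal gene, was at 0.31 and passed the test only without WT 2. Genes of both zones were thus among the rises.

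Of 31 genes of glucose production and glycolysis, 10 rose and none fell (median 0.20). The rises included the gluconeogenic genes Pck1, phosphoenolpyruvate carboxykinase (0.79 ± 0.11, adjusted p = 4.2e-06), Fbp1, fructose bisphosphatase (0.96 ± 0.10), and G6pc, glucose-6-phosphatase (0.94 ± 0.17). Pck1 was at 11321, 11467 and 10056 in KO and 6448, 7112 and 5516 in WT. The ketohexokinase gene Khk of fructose breakdown (1.16 ± 0.14) and the glucose transporter gene Slc2a2 (0.99 ± 0.09) rose too. With TNFa 8 of the 31 rose and 4 fell (median -0.11), and with TGFb 16 rose and none fell (median 0.36).

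Genes of sulfur amino acids and taurine split. Of 19 tested, 9 rose and 1 fell (median 0.46). Csad (chromosome 15, 102085434 to 102113160) was the gene that fell, at 191, 217 and 110.0 in KO and 1457, 1659 and 1272 in WT (-3.12 ± 0.24, adjusted p = 9.8e-11). Bhmt, which remethylates homocysteine, was at 11518, 11590.3 and 10883 in KO and 3884, 4504 and 4240.1 in WT (1.43 ± 0.09, adjusted p = 6.2e-12). Cdo1, cysteine dioxygenase, the step before Csad, rose by 0.40 ± 0.09, whereas Slc6a6, the taurine transporter, was at -0.18 ± 0.09 (adjusted p = 0.26). Csad was also lower with TNFa (-3.26 ± 0.24) and TGFb (-2.63 ± 0.24). The 1 fall counted under amino acid breakdown was Csad too.

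Drug metabolism genes rose more often than they fell. Of 43 phase I genes, 22 rose and 3 fell (median 0.49), and of 47 conjugation genes 16 rose and 4 fell (median 0.40), or 2 fell without WT 1. Cyp2b13 was at 4214, 4556 and 4214 in KO and 1047, 950.0 and 1016 in WT (2.11 ± 0.12, adjusted p = 2.2e-13), while Cyp3a44 was at 1706, 1531 and 1916 in KO and 3974, 3613 and 4624 in WT (-1.24 ± 0.10, adjusted p = 7.9e-10). Both belong to cytochrome P450 families with near-identical copies, so their values are uncertain where the counting could split reads. The glutathione transferase genes Gsta3 (1.10 ± 0.09) and Gstz1 (1.08 ± 0.10) and the steroid sulfotransferase gene Sult2a1 (0.80 ± 0.09) rose.

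Several of these genes are known to differ between the sexes in mouse liver. Of 36 female-biased genes tested, 14 rose and 8 fell (median 0.25), and of 37 male-biased genes 3 rose and 2 fell (median 0.09), with 1 falling without KO 1, KO 3, WT 1 or WT 2. The female-biased genes that rose included Cyp2b13 and Hamp2 (1.83 ± 0.12), and those that fell included Cyp3a44, Sult3a1, Sult3a2 and Ntrk2. Of the male-biased genes, Cyp2d9 (2.0 ± 0.42) rose and the organic anion transporter gene Slco1a1 (-1.16 ± 0.21) fell. The Y-linked genes Ddx3y and Eif2s3y were at most 4.88 and 8.84 in any of the 6 libraries, and Kdm5d and Uty were at 24.8 to 126. With 14 rises and 8 falls, the female-biased list moved in both directions.

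Among 27 bile acid genes, 12 rose and 2 fell (median 0.43), with 1 falling without any 1 of KO 1, KO 2, KO 3, WT 1 or WT 2. Cyp7a1, the rate-limiting enzyme of bile acid synthesis, was at 612, 514 and 916 in KO and 256, 331 and 401 in WT (1.03 ± 0.21, adjusted p = 0.0011). Akr1d1, the steroid 5-beta-reductase of the same pathway, rose by 1.13 ± 0.10 and Slc10a1, the sodium-dependent bile acid uptake transporter, by 0.87 ± 0.14. The uptake transporters Slco1b2 (0.68 ± 0.08) and Slco1a4 (0.68 ± 0.10) rose while Slco1a1 fell.

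Of 27 lipoprotein genes 11 rose and 3 fell (median 0.39), or 7 rose without WT 1 and 1 fell without KO 3 or WT 2. Apom, a carrier of sphingosine 1-phosphate in HDL (0.80 ± 0.13), Apoc1 (0.78 ± 0.12) and Apoa2 (0.48 ± 0.10) rose. Apob, the structural protein of VLDL, was at -0.27 ± 0.11 (adjusted p = 0.15).

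Of 31 genes of fatty acid oxidation, 13 rose and none fell (median 0.27). They included Hacl1 of peroxisomal alpha-oxidation (0.89 ± 0.10, adjusted p = 3.7e-07), Acaa2, the mitochondrial thiolase (0.75 ± 0.10, adjusted p = 2.5e-06), and Hadh (0.64 ± 0.09). Acaa2 was at 11232, 12088 and 13027 in KO and 7677, 5995 and 8106 in WT. The carnitine palmitoyltransferase gene Cpt1a, which controls entry of fatty acids into mitochondria, was at 0.12 ± 0.15 (adjusted p = 0.72). The list's count was 6 rises with TNFa (median 0.01) and 21 with TGFb (median 0.50), with no falls in either.

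The counts for lipid synthesis are read against 5.62% higher and 3.77% lower of all genes. Of 23 fatty acid synthesis genes 4 rose and none fell, led by Thrsp, a lipogenic regulator (0.92 ± 0.21, adjusted p = 0.0036), and 2 rose without KO 2. Of 32 triglyceride and lipid droplet genes 5 rose and 2 fell, with 3 rising without KO 1 or WT 2 and 1 falling without KO 3, WT 2 or WT 3. Among those that fell was Lpin2, a phosphatidate phosphatase (-0.47 ± 0.08). The lipase gene Aadac (0.69 ± 0.13) and the carboxylesterase genes Ces1f (0.64 ± 0.11) and Ces1g (0.55 ± 0.12) rose. Of 25 cholesterol genes 1 rose (Sc5d, 0.40 ± 0.09) and 1 fell (Cyp51, -0.29 ± 0.09, a call lost without any 1 of KO 1, KO 2, KO 3, WT 2 or WT 3, in the fits of 6 libraries and in both length alternatives), with a median of -0.03. These 2 of 25 are close to the 9.39% called of all genes. That list had 9 falls with TNFa and 7 rises with TGFb. The fatty acid uptake receptor gene Cd36, which macrophages express as well, was at 5518, 5237 and 4772 in KO and 2079, 1990.0 and 2512 in WT (1.24 ± 0.11, adjusted p = 1.0e-09).

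Nuclear genes of the respiratory chain were shifted as a group. Of 76 tested over the 5 complexes, 25 rose and none fell, 72 lay above 0, and the median was 0.51. Ndufb5 of complex I was at 1431, 1458 and 1330.5 in KO and 778, 764 and 988 in WT (0.75 ± 0.13, adjusted p = 1.3e-04). Sdhb of complex II was at 1736, 1624 and 1665 in KO and 944, 944 and 1171 in WT (0.72 ± 0.12, adjusted p = 9.7e-05). Cox5a of complex IV was at 4769, 5152 and 4717 in KO and 2695, 2173 and 4130.2 in WT (0.75 ± 0.14, adjusted p = 6.1e-04). The groups did not overlap for these 3 genes.

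By complex, 7 of 37 genes rose in complex I, 2 of 4 in complex II, 5 of 9 in complex III, 5 of 12 in complex IV and cytochrome c, and 6 of 14 in ATP synthase. Complex III gave 3 without KO 2, WT 1 or WT 2, and complex IV gave 3 without KO 1 or WT 1. With TNFa none of the 76 rose or fell (median -0.02), and with TGFb 18 rose and none fell (median 0.33). The difference from TNFa itself passed the test for 3 of the 76, all higher with conditioned medium, and the median difference was 0.48. Both values were found without removing the length trend.

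This list has a median transcript length of 693.5 bases, against 2210 over all genes tested, so it falls in the class of short transcripts described above. With the length trend removed, 22 rose and none fell, and the median was 0.41. Its median by library was 0.26, 0.24 and 0.20 above the 6-library mean in KO, and -0.34, -0.32 and -0.02 in WT, so that WT 3 lay close to the mean. The count for complex I was 12 without WT 3 and 4 without WT 2. Among the 13 genes encoded by mitochondrial DNA, 2 rose, mt-Co3 and mt-Nd3 (0.59 ± 0.15), the second of which lost its call without KO 1, KO 2 or WT 2. The median difference of the 13 was 0.11, and 4 lay below 0. By library their median deviation was 0.11, 0.45 and -0.44 in KO and -0.13, 0.04 and -0.03 in WT, so the genotypes overlapped. Of 19 citric acid cycle genes 6 rose and none fell, among them Idh2 (0.78 ± 0.13) and Suclg1 (0.80 ± 0.12).

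Of 62 cytosolic ribosomal protein genes, 17 rose and 1 fell (median 0.23). Rps14 was at 3645, 3563 and 4111 in KO and 2144, 1325 and 2674 in WT (0.94 ± 0.17, adjusted p = 2.4e-04), and Rpl30, which lies near Mtdh, was the gene that fell (-0.99 ± 0.18, adjusted p = 4.0e-04). The count of rises was 10 without WT 1, 8 without WT 2, 26 without WT 3 and 15 with the length trend removed. The list's median in each library was 0.13, 0.09 and 0.20 in KO and -0.28, -0.22 and 0.13 in WT, so WT 3 was as high as the KO libraries. Ribosomal protein genes have many processed pseudogenes, with which the counting may have shared reads. Of 52 mitochondrial ribosome genes 3 rose, a share close to the 5.62% of all genes, and 0 did so without KO 2 or WT 1, 1 without WT 2, 6 without WT 3 and 1 with the length trend removed.

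**Figure D3:**
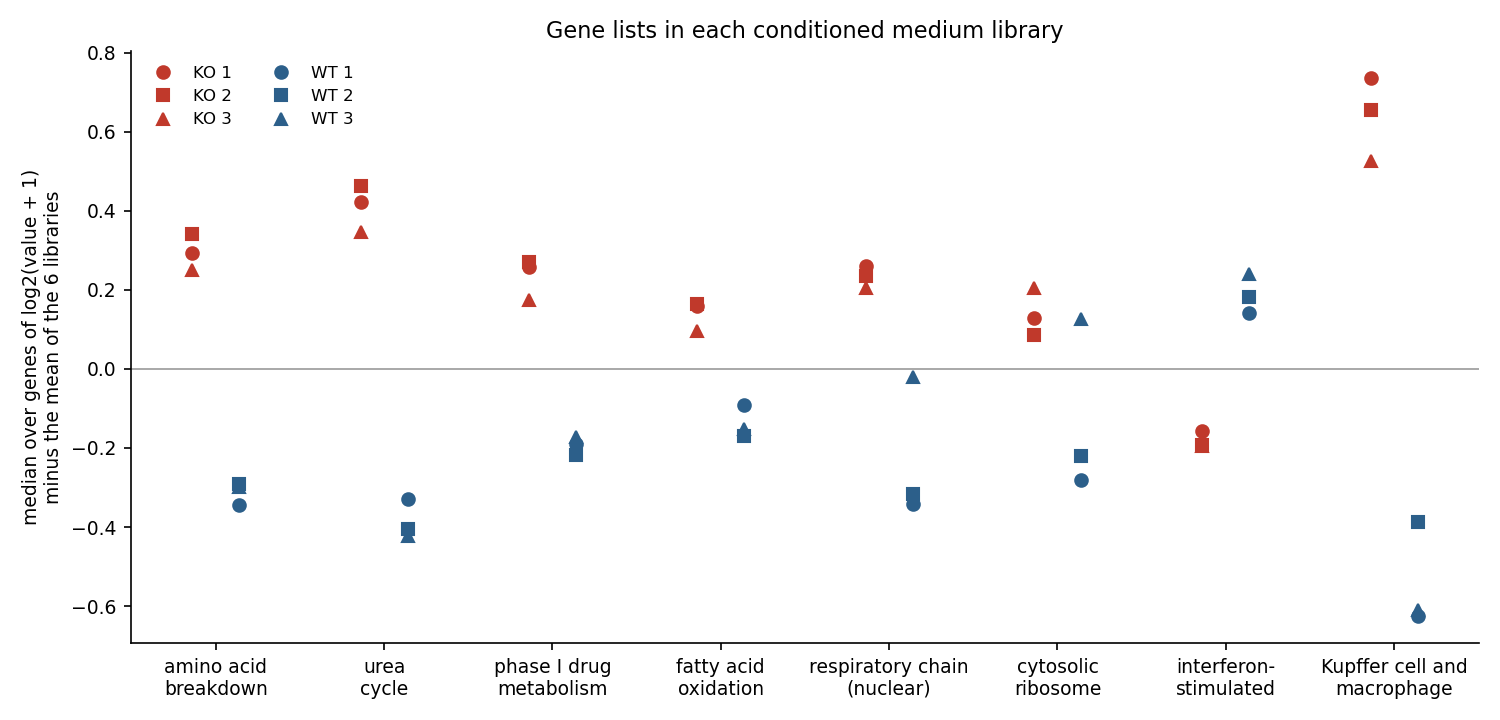
Median over the tested genes of each list (x axis) of log2(value + 1) minus the mean of the 6 libraries (y axis), 1 point for each conditioned medium library. The amino acid list separates KO (0.25 to 0.34) from WT (-0.34 to -0.29), while WT 3 lies at -0.02 for the respiratory chain and 0.13 for the cytosolic ribosome, away from WT 1 and WT 2.

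Interferon-stimulated genes were lower. Of 48 tested, 14 fell and 1 rose (median -0.35), against 3.77% lower of all genes, and 9 fell without KO 2. Parp14, a mono-ADP-ribosyltransferase, was at 2121, 2052 and 2012 in KO and 4079.9, 4469 and 3834 in WT (-1.0 ± 0.11, adjusted p = 1.9e-07). Stat2, a subunit of the interferon-activated factor ISGF3, was at 924, 862 and 1110.3 in KO and 1576, 2057 and 1824 in WT (-0.91 ± 0.16, adjusted p = 2.2e-04). Ifit1, which binds foreign RNA caps, was at 2147, 1929 and 2050.2 in KO and 3754, 3199.6 and 3654 in WT (-0.79 ± 0.17, adjusted p = 0.0025). In these 3 genes every KO library was below every WT library.

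The RNA sensor gene Rigi (-0.58 ± 0.12), the ubiquitin ligase gene Trim25 that acts on it (-0.44 ± 0.08), Dtx3l, a partner of PARP9 (-0.62 ± 0.12), and the nucleotide kinase gene Cmpk2 (-1.02 ± 0.24) fell. Isg15 was at 0.30 ± 0.30 (adjusted p = 0.64) and Mx1 at -1.0 ± 0.56 (adjusted p = 0.32). The gene that rose was Iigp1, an interferon-inducible GTPase (0.47 ± 0.12, adjusted p = 0.012), whose call was lost without KO 1, KO 2 or WT 2. The list went the same way with TNFa (13 fell, median -0.40) and TGFb (18 fell and 2 rose, median -0.46).

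Interferon acts on these genes through the interferon-stimulated response element, to which the factor ISGF3 binds. The stretches below show where the letters TTTCNNTTTC, or GAAANNGAAA on the other strand, occur in the 160 bases before the start of 3 of the genes that fell, in capitals. The letters are shown as a promoter feature known for such genes, and not every member of this list holds them in the window searched. Sequences are from RefSeq promoters of GRCm38.p6, a different build from that of the deposited table, and run 5′ to 3′.
Ifit1 (chr19:34640729-34640888, plus strand): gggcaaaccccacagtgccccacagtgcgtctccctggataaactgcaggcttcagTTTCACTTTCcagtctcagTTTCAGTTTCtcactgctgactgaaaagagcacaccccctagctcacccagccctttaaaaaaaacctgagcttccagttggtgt
Gbp2 (chr3:142620503-142620662, plus strand): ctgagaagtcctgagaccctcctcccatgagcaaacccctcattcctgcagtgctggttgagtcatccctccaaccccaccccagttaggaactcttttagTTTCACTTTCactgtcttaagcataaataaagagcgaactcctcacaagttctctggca
Ifit3b (chr19:34607797-34607956, plus strand): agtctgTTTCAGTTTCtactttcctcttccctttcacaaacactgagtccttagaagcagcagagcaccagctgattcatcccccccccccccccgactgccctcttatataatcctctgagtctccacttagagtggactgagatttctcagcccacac

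The letters occurred in 3.44% of all 32851 promoter windows of 300 bases (250 before to 50 after the start), in 3.77% of the 11155 tested genes with a window, and in 18 of the 35 interferon-stimulated genes that could be matched (51.4%). They were in 5 of the 10 matched genes that fell and in 13 of the 25 that did not pass the test, so the share hardly differed between those sets. Ifit1 holds the letters at 2 places in the stretch shown. Gbp2, a guanylate-binding GTPase, fell by 0.71 ± 0.21, adjusted p = 0.031, a call lost without KO 2, KO 3, WT 2 or WT 3. Ifit3b fell by 0.90 ± 0.28, adjusted p = 0.035, a call lost when any 1 of the 6 libraries was left out. Ifit3b and Ifit3 are near-identical copies that may share reads. A match describes the letters in the window and is not a measured site.

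Of 21 genes of MHC class I presentation, 3 fell and 1 rose, against 3.77% lower and 5.62% higher of all genes. The peptide transporter gene Tap1 fell by 0.63 ± 0.16, adjusted p = 0.0095 and lost its call without WT 2, the class I regulator gene Nlrc5 (-0.47 ± 0.13) without KO 1, KO 2, WT 1 or WT 2, and Tapbp (-0.35 ± 0.11) without KO 1, KO 2, KO 3, WT 1 or WT 2. Nlrc5 also lost its call with the length trend removed, and both did in the fit of the 6 libraries alone. H2-D1, a classical class I chain, rose by 0.34 ± 0.09 and lost its call without WT 1, with equal totals or with the length trend removed. The count of falls was 1 without KO 1 or KO 2 and 0 without WT 2.

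NRF2 and glutathione genes rose more often than they fell, with 10 of 31 higher and 1 lower (median 0.27). Hmox1, heme oxygenase 1, which macrophages also express, was at 44299, 44084 and 42321 in KO and 27149, 25139.5 and 27788 in WT (0.71 ± 0.08, adjusted p = 2.3e-07). Txnrd1, thioredoxin reductase 1, was at 14808, 14742 and 14943 in KO and 9565, 11177 and 9924 in WT (0.54 ± 0.08, adjusted p = 1.0e-05). Prdx1, peroxiredoxin 1, was at 30089, 29992 and 31033 in KO and 17947, 12978 and 25243 in WT (0.75 ± 0.14, adjusted p = 5.6e-04). The glutathione synthesis genes Gclc (0.40 ± 0.09) and Gclm (0.44 ± 0.10) and the sulfiredoxin gene Srxn1 (0.49 ± 0.08) rose, while Nqo1, a defining NRF2 target, was at 0.13 ± 0.26 (adjusted p = 0.84). With TNFa 11 rose and 3 fell, and with TGFb 6 rose and 2 fell.

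NRF2 binds the antioxidant response element, for which the letters TGACNNNGC, or GCNNNGTCA on the other strand, were searched. They are in capitals in the 160 bases before the start of 2 of the genes that rose.
Txnrd1 (chr10:82859046-82859205, plus strand): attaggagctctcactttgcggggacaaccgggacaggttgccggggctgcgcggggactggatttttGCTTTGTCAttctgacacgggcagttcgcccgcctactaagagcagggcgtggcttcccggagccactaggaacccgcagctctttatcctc
Prdx1 (chr4:116685439-116685598, plus strand): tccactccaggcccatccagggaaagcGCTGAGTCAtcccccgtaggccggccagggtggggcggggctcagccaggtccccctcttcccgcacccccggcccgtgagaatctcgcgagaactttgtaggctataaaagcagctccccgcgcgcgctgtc

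These letters are less specific, occurring in 12.4% of all windows and in 16.5% of those of tested genes. They were in 10 of 27 matched genes of the list (37.0%), in 5 of the 8 matched genes that rose and in 5 of the 19 that did not pass the test. The match in Prdx1 overlaps the AP-1 motif TGAGTCA, so the letters alone do not tell these motifs apart.

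Genes of the unfolded protein response moved in both directions. Of 33 genes of this and the amino acid stress response, 8 fell and 4 rose (median -0.08). Hyou1, an endoplasmic reticulum chaperone, was at 2447, 2452 and 2042 in KO and 4765, 4121 and 3477 in WT (-0.83 ± 0.11, adjusted p = 5.0e-06), and Creld2, a secreted stress protein, was at 285, 267 and 258 in KO and 620.5, 529.7 and 472 in WT (-0.99 ± 0.19, adjusted p = 6.3e-04). The chaperone genes Hsp90b1 (-0.42 ± 0.10) and Pdia6 (-0.45 ± 0.09) fell, and Xbp1 (-0.37 ± 0.10) did so with a call lost without KO 2 or WT 1. Hspa5, which encodes BiP, was at -0.08 ± 0.08 (adjusted p = 0.63). The 4 that rose were Atf4, a transcription factor of the amino acid response (0.29 ± 0.08, a call lost without KO 2, KO 3 or WT 2, with equal totals and in the fits of 6 libraries, and at 0.16 with adjusted p = 0.25 with the length trend removed), and its known targets Atf3 (0.61 ± 0.12), Trib3 (0.60 ± 0.15) and Sesn2 (0.39 ± 0.10, a call lost without KO 3 or with equal totals). Ddit3, which encodes CHOP, was at -0.28 ± 0.28 (adjusted p = 0.64). With TNFa 8 fell and none rose, and with TGFb 8 fell and 3 rose. The small heat shock protein gene Hspb1 fell by 1.0 ± 0.23, adjusted p = 0.0041.

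Secreted plasma proteins rose in part. Of 38 complement and coagulation genes 13 rose and 1 fell (median 0.26), against 3 rising and 4 falling with TNFa and 21 rising and 1 falling with TGFb. The protease inhibitor genes Serpinf2, antiplasmin (0.72 ± 0.08), Serpind1, heparin cofactor II (0.75 ± 0.11), and Serpinc1, antithrombin (0.49 ± 0.08), were among the rises. Of 32 acute phase genes 5 rose and 4 fell, and the number of rises was 2 without KO 1, KO 2 or WT 2, 3 without WT 1 and 8 without WT 3. The heme carrier gene Hpx rose by 0.66 ± 0.11, while Il6st, the shared receptor chain of IL-6 (-0.48 ± 0.10), and Lcn2, an iron-siderophore carrier (-0.42 ± 0.10), fell.

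Iron genes moved in both directions, with 4 of 21 higher and 5 lower, or 3 lower without KO 1, KO 2 or WT 1. Hamp, the iron hormone hepcidin, was at 3277, 3215 and 3704 in KO and 1525, 1599.6 and 1645 in WT (1.09 ± 0.10, adjusted p = 5.4e-09), and its copy Hamp2, with which it may share reads, was at 3909, 4229 and 3533 in KO and 1181, 986 and 1106 in WT (1.83 ± 0.12, adjusted p = 7.0e-12). Cp, the ferroxidase ceruloplasmin, was at 21976, 23460.2 and 22579.9 in KO and 37339, 34811 and 36886 in WT (-0.68 ± 0.09, adjusted p = 1.8e-06). Slc39a14, the iron and zinc importer ZIP14, was at 7733, 7668 and 6987 in KO and 12599, 12344 and 10961 in WT (-0.68 ± 0.08, adjusted p = 7.4e-07). Both hepcidin genes were thus higher, and Cp and Slc39a14 lower, in every KO library.

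Immune response genes of other lists changed in small numbers, beside the macrophage markers, whose summed level was 1.52-fold higher in KO. The counts here are read against 5.62% higher and 3.77% lower of all genes. Of 19 chemokine genes 4 rose and none fell, with 1 rising without KO 1 or WT 1 and 2 without KO 2 or WT 2. The macrophage-expressed Ccl9 was at 2578, 2913 and 2894 in KO and 1319, 1049 and 1632 in WT (1.09 ± 0.12, adjusted p = 1.9e-07), and Ccl4, Ccl7 and Cxcl12 rose with calls lost without KO 1, WT 1 and other libraries. Of 37 TNF and NF-kappaB response genes 5 rose and 1 fell, with 3 rising without KO 3 or WT 2. Tnfaip2 rose by 0.92 ± 0.16, the adhesion receptor gene Vcam1 by 0.79 ± 0.17 and the inhibitor gene Nfkbia by 0.55 ± 0.13. Of 27 immediate-early genes 6 rose and none fell, among them Junb (0.63 ± 0.10), with 3 rising without KO 1 and 2 without KO 2. Of the 16 checkpoint ligand genes tested, Arg1, which is also a urea cycle enzyme, was the 1 that rose, and none fell. This share of 6.25% is below the 9.39% called of all genes.

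Of 18 growth hormone axis genes 3 rose and 1 fell (median -0.07), and 12 lay below 0. Igfbp2, an IGF-binding protein, was at 2405, 2309 and 2042 in KO and 1038, 950.1 and 1034 in WT (1.16 ± 0.11, adjusted p = 1.8e-08), and the prolactin receptor gene Prlr rose by 0.54 ± 0.09. The gene that fell was Igfals (-0.57), whose call was lost without KO 2, KO 3, WT 2 or WT 3. Of 24 retinoid genes 7 rose and none fell, among them Cyp26a1, the retinoic acid hydroxylase (1.20 ± 0.18, adjusted p = 2.7e-05), Adh1, a retinol and ethanol dehydrogenase (0.94 ± 0.08), and Aldh1a1, a retinaldehyde dehydrogenase (0.59 ± 0.09). Of 38 hepatocyte identity genes 7 rose and 1 fell, and Hnf4a, the central hepatocyte transcription factor, was at -0.32 ± 0.11 (adjusted p = 0.054). Of 25 ductal and dedifferentiation genes 2 rose and 4 fell, and with the length trend removed 2 fell. Cldn4, a tight junction protein of ducts, was at 5889.5, 5829 and 5129 in KO and 2785, 2395 and 2689 in WT (1.10 ± 0.09, adjusted p = 1.1e-09). Of 35 cell cycle genes 2 rose and 2 fell, close to the 9.39% called of all genes. Cdk6 fell by 0.68 ± 0.09, and Pcna, the replication clamp, rose by 0.64 ± 0.09.

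Genes next to Mtdh also differed. Within 1 Mb of Mtdh lie 10 other genes that were tested. Of these 2 were higher and 2 lower, against 5.62% higher and 3.77% lower of all genes. Tspyl5, of the TSPY-like family, was at 168, 209 and 108 in KO and 1.08, 34.1 and 36.2 in WT (3.49 ± 0.79, adjusted p = 0.0034). Rida, which removes reactive imines, was at 7325, 7538 and 7292 in KO and 2645, 2794 and 2794 in WT (1.43 ± 0.09, adjusted p = 2.6e-12). Cpq, a carboxypeptidase, was at 775, 651 and 661 in KO and 1275, 1091 and 1159 in WT (-0.76 ± 0.12, adjusted p = 5.1e-05), and Rpl30 was at 497, 401 and 307 in KO and 631, 869 and 868 in WT. For Rpl30 and Cpq every KO library was below every WT library. The effect on Rida was 1.15 ± 0.09 with TNFa and 1.52 ± 0.09 with TGFb, and that on Rpl30 was -0.52 ± 0.18 and -0.62 ± 0.18. A passenger segment of chromosome around the targeted gene cannot be told apart here from an effect of MTDH, since the sources used here name no mouse strains.

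Of 9 genes of known MTDH partners that were tested, leaving out Mtdh itself, 2 fell and none rose. They were Zbtb16, the repressor PLZF (-1.35 ± 0.23, adjusted p = 1.3e-04), and Ago2, the effector of RNA interference (-0.43 ± 0.10, adjusted p = 0.0032). Ago2 was at -0.14 (adjusted p = 0.42) with the length trend removed, which leaves 1 fall. Snd1, the best known partner, was at 1405, 1346 and 1458 in KO and 1544, 1874 and 1311 in WT (-0.15 ± 0.12, adjusted p = 0.52), and its groups overlapped.

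**Figure D4:**
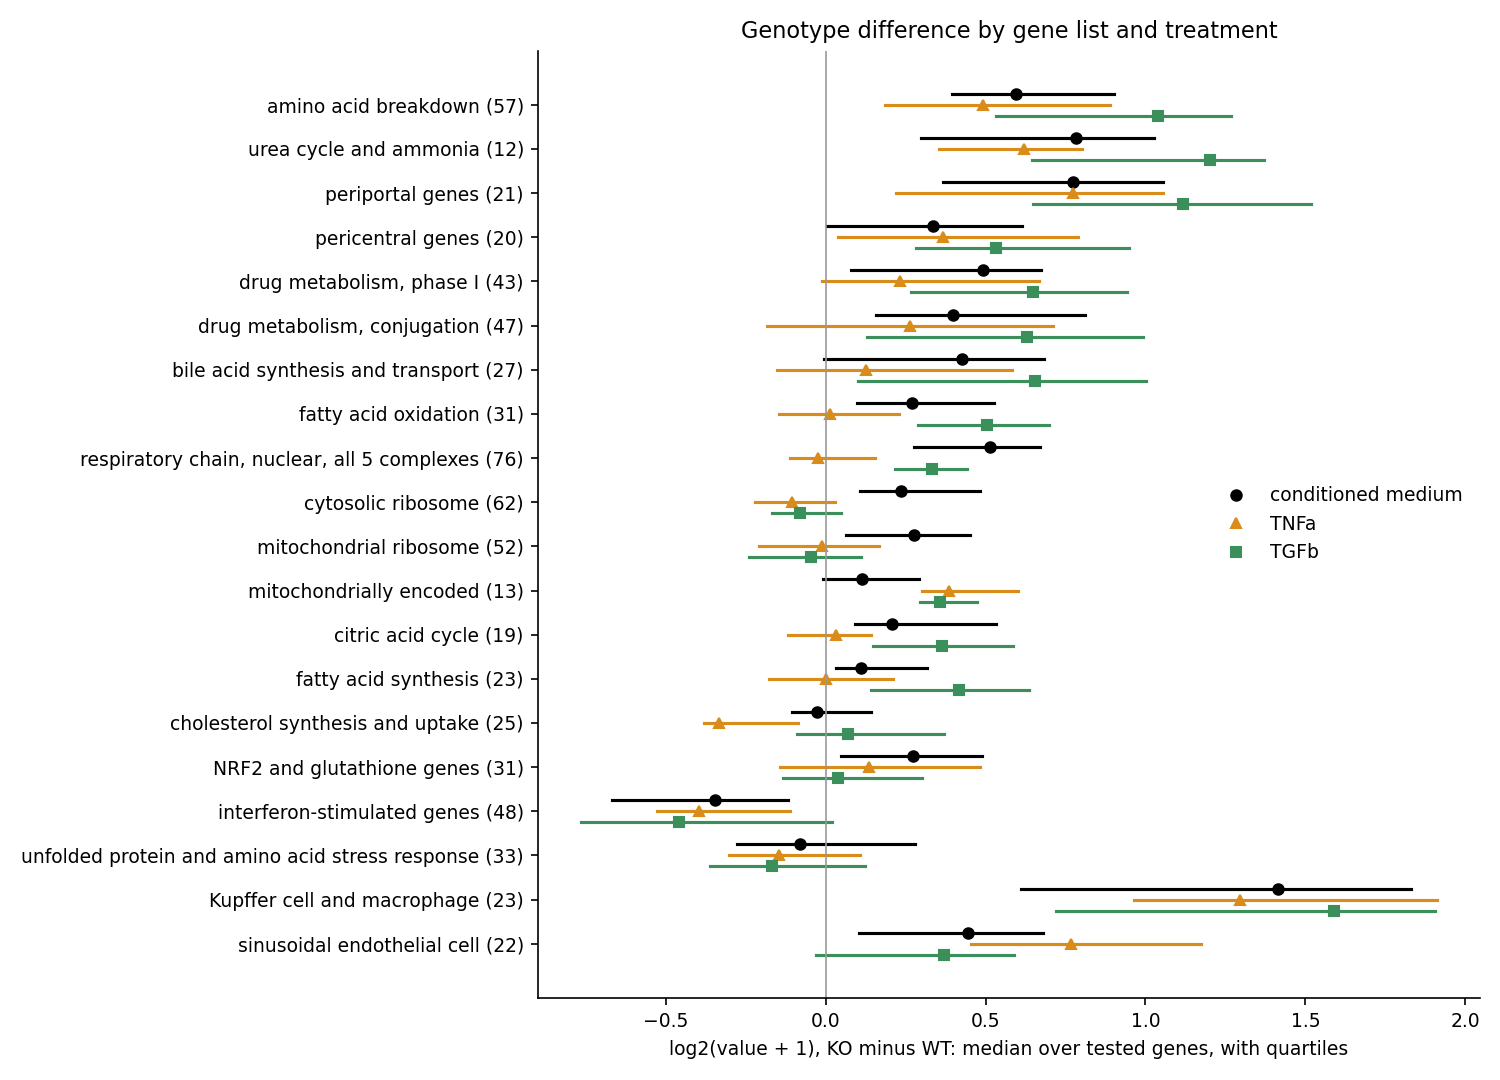
Median log2(value + 1) difference, KO minus WT, over the tested genes of each list (x axis; lines are quartiles) for conditioned medium, TNFa and TGFb; list names with the number of genes are on the y axis. The amino acid list lies above 0 in all 3 treatments (0.60, 0.49 and 1.04) and the interferon list below 0 (-0.35, -0.40 and -0.46), while the respiratory chain list lies at 0.51, -0.02 and 0.33.

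Whether the genotype difference itself depended on the treatment was tested as an interaction. Against TNFa, 91 genes (0.63%) differed, 83 with a higher effect under conditioned medium (0.574%) and 8 with a lower one (0.0553%). Against TGFb, 71 genes (0.491%) differed, 35 higher (0.242%) and 36 lower (0.249%). Against the mean of both, 59 genes (0.408%) differed, 49 higher (0.339%) and 10 lower (0.0692%). These counts moved with WT library 3: without it they were 348, 237 and 309. Without other libraries they were as low as 32, 15 and 8. At an unadjusted p of 0.05 the numbers were 1922, 1572 and 1689.

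Ep400, a chromatin remodelling ATPase, was at 4264, 4394 and 3903 in KO and 5482, 6259 and 5092 in WT with conditioned medium, a log2 difference of -0.42 ± 0.09. The effect was 0.43 ± 0.09 with TNFa and 0.34 ± 0.09 with TGFb, so the difference from their mean was -0.80 ± 0.11, adjusted p = 7.3e-04. With the length trend removed its effect with conditioned medium was -0.24 (adjusted p = 0.078). Lox, the collagen crosslinking enzyme, was at -0.31 ± 0.13 with conditioned medium (adjusted p = 0.17), -1.27 ± 0.13 with TNFa and -1.55 ± 0.13 with TGFb, a difference from the mean of 1.10 ± 0.16, adjusted p = 8.2e-04. Ankrd23, an ankyrin repeat protein, was at 0.50 ± 0.15, -0.83 ± 0.15 and -0.74 ± 0.15 in the same order, a difference of 1.28 ± 0.19, adjusted p = 8.2e-04. Dap, a negative regulator of autophagy, was at 0.72 ± 0.10, 0.04 ± 0.10 and 0.04 ± 0.10, a difference of 0.68 ± 0.12, adjusted p = 0.011, or 0.58 with adjusted p = 0.052 with length and GC trends removed. Cnih1, a cargo receptor of the secretory pathway, was at 0.50 ± 0.11, -0.21 ± 0.11 and -0.22 ± 0.11, a difference of 0.72 ± 0.13, adjusted p = 0.011.

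Against TNFa, 3 genes with small p-values are given as examples. The ribosomal gene Rpl36a differed by 1.25 ± 0.18, adjusted p = 0.0016, the thiolase gene Acaa2 by 0.90 ± 0.14, adjusted p = 0.0016 and Echs1, the enoyl-CoA hydratase, by 0.76 ± 0.13, adjusted p = 0.0045. In all 3 the KO effect was above 0 with conditioned medium and below 0 with TNFa. Against the 0.574% of all genes that were higher against TNFa, the counts were 5 of 62 for the cytosolic ribosome, 3 of 76 for the respiratory chain, 2 of 31 for fatty acid oxidation and 0 of 52 for the mitochondrial ribosome, with none lower in any of these lists. Cytosolic ribosome and respiratory chain genes are short (median 732.75 and 693.5 bases). The median difference of transcripts up to 1000 bases was 0.11 with conditioned medium and -0.04 with TNFa. These list counts are not given here with the length trend removed, and the count over all genes moved with it. Fabp5, a fatty acid binding protein that macrophages express too, differed by 0.85 ± 0.14, adjusted p = 0.0045.

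Against TGFb, Cldn4 differed by 1.07 ± 0.13, adjusted p = 7.8e-05 and Slc7a2, the cationic amino acid transporter, by -0.94 ± 0.12, adjusted p = 7.8e-05. The KO effect on Slc7a2 was 0.33 ± 0.08 with conditioned medium and 1.27 ± 0.08 with TGFb. Tgfbr1, the type I TGF-beta receptor, was at -0.17 ± 0.08 with conditioned medium and -0.87 ± 0.08 with TGFb, a difference of 0.71 ± 0.11, adjusted p = 0.0016. Slc39a14 fell with conditioned medium and was at 0.01 ± 0.08 with TGFb, a difference of -0.70 ± 0.12, adjusted p = 0.0032. Clic4, a chloride channel family protein, was at 0.48 ± 0.09 and -0.27 ± 0.09, a difference of 0.74 ± 0.12, adjusted p = 0.0025.

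**Figure D5:**
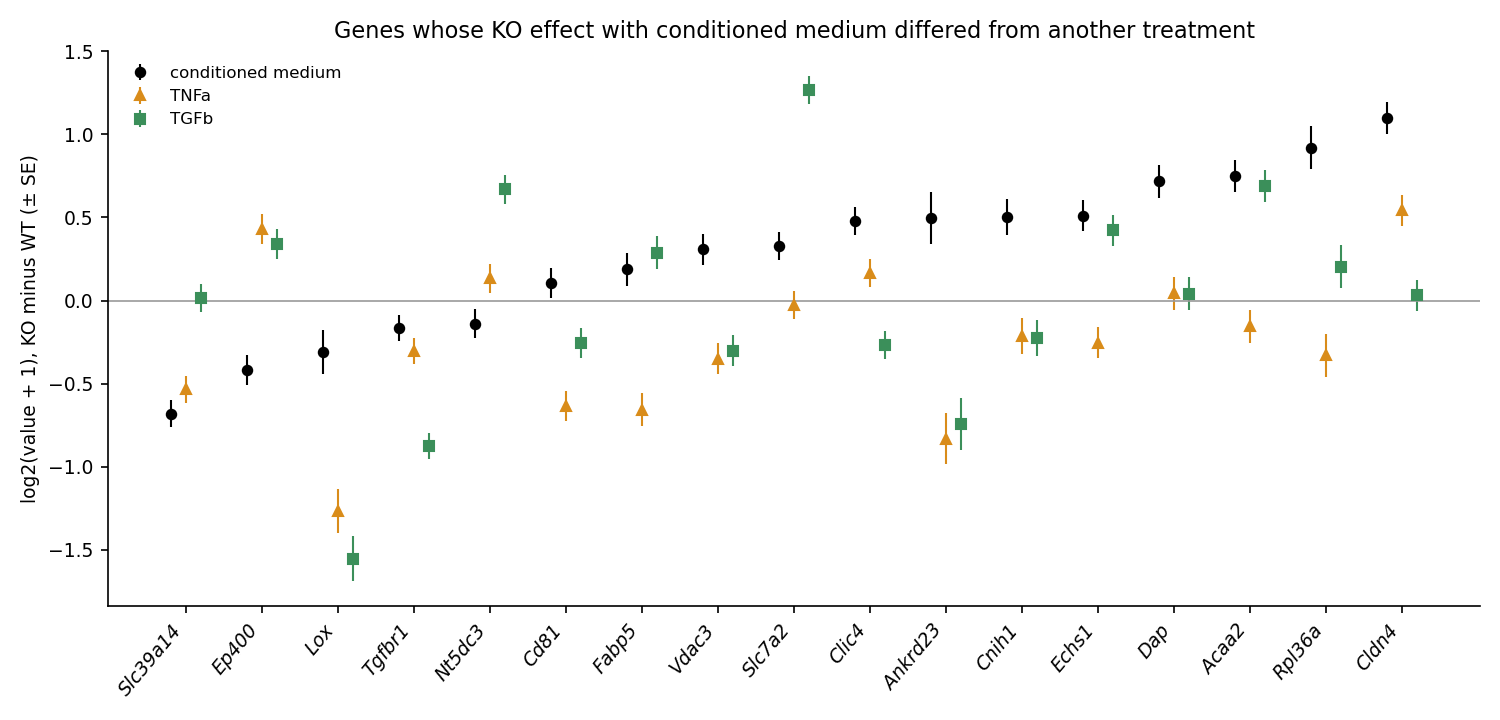
KO minus WT difference of log2(value + 1) with its standard error (y axis) for genes whose KO effect differed between treatments (x axis), 1 point for each treatment. Ep400 lies below 0 with conditioned medium (-0.42) and above 0 with TNFa (0.43) and TGFb (0.34), and Ankrd23 shows the reverse order (0.50, -0.83 and -0.74).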

How the data were processed

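RNA was prepared from hepatocytes with RNeasy columns, depleted of ribosomal RNA with QIAseq FastSelect and made into libraries with PrepX on an Apollo 324, per the labels' protocols. The authors deposited 1 table of 16873 protein-coding genes and 18 libraries as signal values: read counts scaled by DESeq2, after alignment with STAR 2.7.8a to mm39 in Partek, per the submitters' processing notes. The strand setting of the counting is not given in the sources used here. Low values were whole multiples of 1 read, within 0.05 of a read, for only 72.0 to 75.4% of them, so reads were not recovered and no count test was run, and depth is an estimate from these steps.

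Genes with at least 10 in at least 3 libraries (14455) were kept, and log2(value + 1) was fitted over all 18 libraries and 6 groups with limma 3.58.1 in R 4.3.3, with Benjamini-Hochberg adjustment over all genes tested and a threshold of 0.05. Fold changes are on this scale and understate those of low genes. A ± value is the standard error of the fit, with n = 3 libraries in each group. Differences between treatments were interaction contrasts of the same fit. Python 3.11.15 with pandas 2.3.3, NumPy 2.4.6 and matplotlib 3.10.9 made the summaries and plots. On simulated data for KO against WT with conditioned medium (13949 genes), 73 of 100 genes changed by a log2 of 1 and 95 of 100 changed by 2 were recovered, with 13 unchanged genes called. The simulated noise was independent between genes, and the changed genes had a mean of at least 50. These numbers therefore do not cover low genes or a trend shared by many genes, such as that on length.

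The named genes are Mtdh; the 12 largest rises and 12 largest falls among called genes with a mean of at least 50 and no overlap of the groups, leaving out predicted genes; the 8 most abundant called genes with a log2 size of at least 0.5; up to 4 called genes of each list by p-value, with defining members; called genes within 1 Mb of Mtdh; and 8 genes for each treatment difference. A few genes that meet this rule are not reported here. The comparison, the 57 lists and the defining members were chosen with earlier results of these data known. Alternatives varied the pseudocount, filter, scaling, libraries, weights, replicate block and a trend on transcript length and GC. Lengths, from GENCODE vM21, were matched for 99.6% of genes. The 6 libraries did not repeat each other (log2 correlations within groups 0.943 to 0.961).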

Additional observations from a re-analysis of the deposited data

Results flagged for a closer look

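The genes below had a KO effect with conditioned medium that differed from the effect under another treatment by the interaction test in limma (adjusted p at or under 0.05). Values are differences of log2 effects, conditioned medium minus the other treatment.

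Against TNFa, most of these genes had a higher effect with conditioned medium. Ribosomal and mitochondrial genes gave Rpl36a 1.25, Rpl39 1.35, Rps14 1.07, Ndufb9 0.94, Ndufa10 0.86, Sdhd 0.62 and Suclg1 0.75. Genes of fatty acids gave Acaa2 0.90, Echs1 0.76 and Fabp5 0.85. Stress and signalling genes gave Trib3 0.89, Sesn2 0.63, Junb 0.72, Igfbp2 0.68 and Cd81 0.74. The cytochrome P450 gene Cyp2a5 gave 0.52.

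Against TGFb, a higher effect with conditioned medium was found for Cldn4 1.07, Clic4 0.74, Tgfbr1 0.71, Pcna 0.68, Hmox1 0.66 and Gclc 0.62. A lower effect was found for Slc7a2 -0.94, Nt5dc3 -0.81, Pck1 -0.73, Aldh1a1 -0.73, Slc39a14 -0.70, Slc2a2 -0.56 and Lpin2 -0.49.

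Against the mean of both treatments the values were Ankrd23 1.28, Lox 1.10, Rpl9 0.88, Cnih1 0.72, Dap 0.68, Vdac3 0.64, Rpl13a 0.63 and Ep400 -0.80. Without WT 2 the value of Vdac3 was 0.52 (limma, adjusted p = 0.06), and with length and GC trends removed that of Dap was 0.58 (adjusted p = 0.052).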

How the results depend on the processing

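With conditioned medium, alternatives other than leaving out a library gave 1056 to 1501 called genes, and those leaving out 1 of the 6 libraries gave 939 to 1478 in all, 580 to 932 higher and 350 to 546 lower. Equal totals gave 874 lower. The counts of treatment differences moved most. Against TNFa there were 44 without the filter, 55 with quantile normalization, 42 with equal totals, 207 with library weights, 45 with the length trend removed, and 32 to 348 without 1 library. Against TGFb there were 47 without the filter and 15 to 237 without 1 library, and against the mean of both 23, 28 with the length trend removed, and 8 to 309. The cause was not tested. The length alternatives were chosen after seeing the data, and with the trend removed 1215 genes were called, 1024 of them also in the original fit.

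The replicate numbers of the labels did not pair the libraries: deviations of same-numbered KO and WT libraries correlated at -0.030, 0.044 and 0.0039. With the number as a block over 18 libraries 1272 genes were called (776 higher and 496 lower), and over the 6 libraries 1088. In the fit of 6 libraries 20 named genes missed the threshold with the block and 22 without it. With the block, those losing no call to a left-out library included Cdo1 (adjusted p = 0.055) and Lcn2 (adjusted p = 0.059).

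Sign changes were limited to genes near 0. With the length trend removed Nt5dc3 was at 0.0098, Cd81 at -0.0025, Cpt1a at -0.0042 and Cd68 at -0.059, and with length and GC removed Nt5dc3 was at 0.011 and Cd68 at -0.061. Cd68 was at -0.0086 with equal totals and -0.12 to 0.19 without 1 library, Nqo1 at -0.023 to 0.31 and Glul at -0.13 to 0.0031. The standard errors of Heph and P2ry10b were 0.88 and 0.65, and what depth adds to them was not tested. With no filter 14 named genes lost their call, with equal totals 15 and with the length trend removed 21.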
